A study of Mus musculus with 6 samples.

Results

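The regions described here are stretches of H3K9me3 signal that lie at the transcription start of a named gene in the quadriceps femoris, a thigh muscle, of the mouse. H3K9me3 is trimethylated lysine 9 of histone H3. The signal was mapped by CUT&Tag, in which an antibody to the mark guides a DNA-cutting transposase to the chromatin that carries it. Frozen muscle was used. The study compared animals labelled Prr14-WT (replicates 3, 4 and 8) with animals labelled Prr14-KO (replicates 4, 5 and 7), so that there were 3 libraries per genotype, called WT 3, WT 4, WT 8, KO 4, KO 5 and KO 7 below. The labels give neither the strain, sex or age, nor the way the allele was made, nor whether each library is a separate mouse, so p-values measure only the spread between these libraries.

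From a table of 202553 regions, those on an autosome were taken that the authors place in the promoter class within 1 kb of a start and assign to a gene symbol. Symbols of gene models and clones, zinc finger genes, olfactory receptors and vomeronasal receptors were left out. This gave 6478 regions, which are 3.20% of the table and 84.1% of its 7707 promoter regions. They belonged to 5430 symbols, of which 4558 had 1 region, 738 had 2 and 134 had 3 or more. The rule used annotation and symbols only and no measured value. Whole muscle was measured, so more cells with the mark at a promoter and more mark per cell cannot be told apart.

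H3K9me3 is the mark of silent, compacted chromatin. It is written by enzymes such as SETDB1 and SUV39H1, read by the HP1 proteins, and is known for its hold on satellite repeats, retrotransposons and clusters of repeated genes. At single gene promoters it is rarer, and is known from imprinted genes, of which a single parental copy is kept silent, and from genes of the germ line that are shut off in body cells. The Prr14 protein sits at the nuclear lamina, binds HP1 and ties heterochromatin to the edge of the nucleus. Promoters also differ in sequence: most housekeeping and many developmental genes start in a CpG island, a stretch rich in the dinucleotide CG, whereas many tissue-specific genes start in CpG-poor DNA, often with a TATA box.

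Promoter sequences were taken from RefSeq (build GRCm38.p6) as windows of 300 bases, from 250 before to 50 after the start, and 4202 of the 5430 symbols were found there. A few of them are printed to show the sequence classes that the results below turn on, in the 5′ to 3′ direction of the gene with every CG in capitals. Sycp1 (chr3:102936051-102936350, minus strand) encodes a core protein of the synaptonemal complex of meiosis, and Mael (chr1:166238695-166238994, minus strand) a protein that guards germ cells against retrotransposons. They stand for germline promoters. Tcfl5 (chr2:180642642-180642941, minus strand) encodes a helix-loop-helix factor of the testis and had one of the strongest CpG-rich promoter regions. Rap2a (chr14:120478211-120478510, plus strand), a small GTPase, has a CpG-rich window. Its counted region lies 135 bp upstream of that window and had higher counts in the knockout libraries. Postn (chr3:54360857-54361156, plus strand) encodes the matrix protein periostin and stands for a CpG-poor promoter with a TATA box. Scgb1b30 (chr7:34095181-34095480, plus strand) encodes a secretoglobin, from a family of small secreted proteins, and has no CG in its window.
Sycp1: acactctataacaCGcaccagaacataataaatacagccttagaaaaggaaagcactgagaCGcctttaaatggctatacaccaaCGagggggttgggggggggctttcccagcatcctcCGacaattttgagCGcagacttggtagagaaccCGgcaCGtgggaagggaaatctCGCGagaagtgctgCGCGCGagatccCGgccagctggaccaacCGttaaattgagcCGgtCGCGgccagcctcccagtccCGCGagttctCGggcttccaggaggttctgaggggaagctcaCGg
Mael: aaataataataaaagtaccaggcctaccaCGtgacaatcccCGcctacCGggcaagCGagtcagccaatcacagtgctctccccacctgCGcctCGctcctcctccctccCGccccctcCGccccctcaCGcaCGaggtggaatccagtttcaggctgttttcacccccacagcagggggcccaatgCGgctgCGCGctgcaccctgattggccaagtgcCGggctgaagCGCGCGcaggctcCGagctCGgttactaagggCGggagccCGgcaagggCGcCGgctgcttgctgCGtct
Tcfl5: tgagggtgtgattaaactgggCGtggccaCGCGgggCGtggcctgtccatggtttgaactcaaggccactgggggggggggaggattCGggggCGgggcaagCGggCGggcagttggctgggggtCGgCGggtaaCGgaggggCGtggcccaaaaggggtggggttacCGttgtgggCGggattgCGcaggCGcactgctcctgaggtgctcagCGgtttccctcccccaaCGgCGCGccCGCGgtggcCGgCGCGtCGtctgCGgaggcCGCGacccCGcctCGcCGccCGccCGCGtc
Rap2a: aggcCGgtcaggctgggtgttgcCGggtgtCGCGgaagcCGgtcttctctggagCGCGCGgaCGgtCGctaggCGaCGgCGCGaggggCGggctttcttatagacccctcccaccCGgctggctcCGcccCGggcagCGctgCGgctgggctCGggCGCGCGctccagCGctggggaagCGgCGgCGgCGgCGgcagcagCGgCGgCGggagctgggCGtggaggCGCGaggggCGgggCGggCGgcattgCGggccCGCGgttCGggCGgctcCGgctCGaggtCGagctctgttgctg
Postn: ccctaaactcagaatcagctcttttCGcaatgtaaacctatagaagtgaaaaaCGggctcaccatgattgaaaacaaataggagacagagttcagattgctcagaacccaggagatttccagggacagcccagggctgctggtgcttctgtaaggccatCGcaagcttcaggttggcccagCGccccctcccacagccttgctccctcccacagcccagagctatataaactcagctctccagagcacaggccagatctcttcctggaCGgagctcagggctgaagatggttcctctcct
Scgb1b30: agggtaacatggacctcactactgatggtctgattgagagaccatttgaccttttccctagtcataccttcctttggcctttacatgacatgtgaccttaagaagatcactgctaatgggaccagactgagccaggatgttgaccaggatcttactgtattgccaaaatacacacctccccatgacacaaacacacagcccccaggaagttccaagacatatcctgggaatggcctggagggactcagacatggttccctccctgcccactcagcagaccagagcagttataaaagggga
The windows hold 21 CG in Sycp1, 24 in Mael, 35 in Tcfl5, 47 in Rap2a, 5 in Postn and 0 in Scgb1b30. The ratio of observed to expected CG was 1.08 in Rap2a and 0.242 in Postn. The E-box CACGTG starts 94 bases before the start of Sycp1 and 223 bases before that of Mael, and TATAAA starts 26 bases before the start of Postn.

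The promoter regions were mostly short. Widths ran from 140 to 4858 bp with a median of 350 bp and quartiles of 215 and 588 bp, against a median of 317 bp over all regions. Regions of 1 kb or wider numbered 459 (7.09%, against 5.37% of all regions), and 16 were 2 kb or wider. Those 459 wide regions held 21.5% of the counts in promoter regions, about as much as the 2722 regions under 300 bp, which held 21.6%. The midpoint lay after the start, in the direction of transcription, in 4202 regions (64.9%), and 2749 regions (42.4%) contained the start itself. Of the regions, 4919 (75.9%) lay within 1 kb of the 5′ end of the gene as the authors' table gives it. The other 1559 lay farther downstream of that end, at the start of another transcript. RefSeq placed 6456 of the regions' symbols on the same chromosome, and 5714 of those regions (88.5%) overlapped the named gene.

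Most promoter regions carried few counts. The median level was 3.68 CPM (counts relative to library size, scaled between libraries by the TMM method), and the median density was 10.7 CPM per kb of region, close to the 11.1 CPM per kb over all regions. A small number stood far above this. The 5 regions with the most counts held 3.39% of all counts in promoter regions, the top 10 held 4.55% and the top 100 held 11.7%, and the 99th percentile of density was 25.9 CPM per kb.

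The largest level was at Sfi1, which encodes a protein of the centrosome (chr11:3192898-3193682). Its counts were 2206, 2606 and 2227 in WT 3, WT 4 and WT 8 and 2490, 2103 and 1919 in KO 4, KO 5 and KO 7, a density of 687 CPM per kb. The genotypes overlapped, and the log2 difference of knockout over wild type was -0.04 (SE 0.12). Another pair of regions at other starts of Sfi1 reached 436 and 223 CPM per kb. The highest density, 972 CPM per kb, was in a region of 189 bp at Litaf, an endosomal membrane protein (chr16:10975067-10975256). Its counts were 786, 869 and 720 in wild type and 890, 731 and 633 in knockout, again overlapping. A region of 161 bp at Oasl1, a protein of the oligoadenylate synthetase family, followed with 825 CPM per kb (chr5:114922447-114922608).

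Other strong regions were at Ank1, an ankyrin of red cells and muscle (157 CPM per kb), Phf21a, a subunit of a histone demethylase complex (154 CPM per kb), Tmem267, a membrane protein (82.3 CPM per kb), and Dffb, the nuclease that cuts DNA in apoptosis (78.8 CPM per kb). The regions at Oasl1 and Phf21a, and a pair assigned to Ppp2r3d, a phosphatase subunit, lay outside the RefSeq span of those genes. The sources used here do not say how reads that match several places were treated. Levels in repeated sequence and in gene families such as Sfi1, Ppp2r3d, the protocadherins and the secretoglobins are therefore uncertain. The same holds for the very dense regions at Litaf and Oasl1, whose own sequence was not read. Tmem267 contains its start and has a CpG-rich window, with 465, 505 and 448 counts in wild type and 349, 470 and 513 in knockout. The KO 4 value was the lowest of the 6 and the KO 7 value the highest.

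The widest region, 4858 bp, was at Crlf2, a subunit of the receptor for the cytokine TSLP, with 540, 603 and 530 counts in wild type and 752, 523 and 497 in knockout. It was followed by the regions at 7 other genes. Tbx1, a T-box factor of the pharynx and heart, had 2674 bp, Grem1, a secreted BMP inhibitor, 2671 bp, and Celsr1, a cadherin of planar polarity, 2392 bp. Rims2, a protein of synaptic vesicle release, had 2447 bp, Kcnk12, a potassium channel subunit, 2410 bp, and B3gat2, a glucuronyltransferase, 2349 bp. The 459 regions of 1 kb or wider had a median density of 10.9 CPM per kb. Among the widest, density ran from 8.10 CPM per kb at Grem1 and 12.5 at Tbx1 to 18.6 at Celsr1, 25.3 at Pcdhga2 (2330 bp) and 28.2 at Crlf2. None of the strongest or widest regions passed the test between genotypes described further on.

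**Figure D1:**
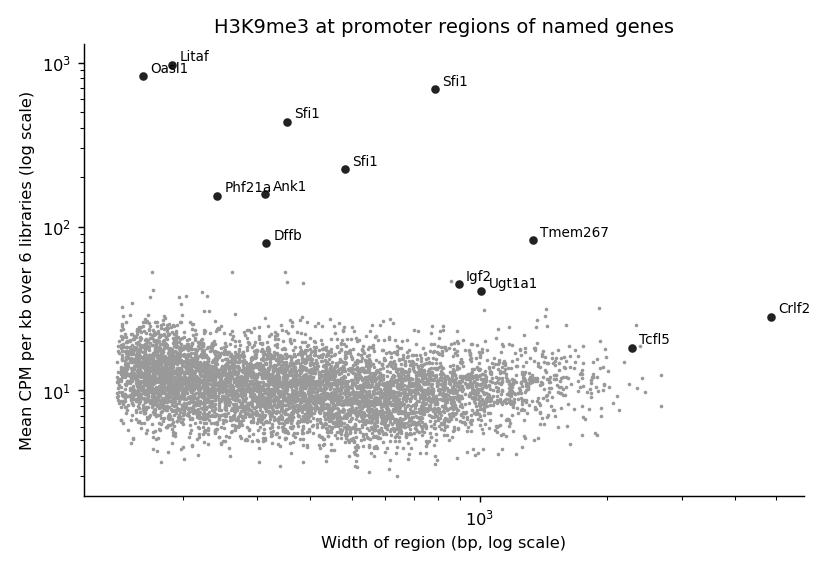
Width of each of the 6478 promoter regions (bp, log axis) against its mean density (CPM per kb over 6 libraries, log axis), with some regions named. Most points form a band around 10.7 CPM per kb at every width, and Litaf, Oasl1 and the 3 Sfi1 regions stand above it at 223 to 972 CPM per kb.

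Density was compared with that of other region classes within the same 6 libraries, as summed CPM per summed kb, here with CPM by library total. Promoter regions of named genes had 10.5 ± 1.17 (SD, n = 6). Regions of named genes 1 to 3 kb from a start had 12.8 ± 0.466 and were denser in 6 of 6 libraries, by 0.29 on the log2 scale (exact sign-change permutation p = 0.0313, the smallest that 6 libraries allow, two-sided, adjusted p = 0.0625 over 4 classes). The log2 difference of -0.29 was -0.19 without the 5 regions with the most counts in each class, and -0.10 by the median over regions, with promoter regions lower in 5 of 6 libraries (exact permutation p = 0.125). Zinc finger gene promoters had 11.9 ± 0.384 and were denser in 5 of 6 libraries (exact permutation p = 0.0625, adjusted p = 0.0833). By the median over regions the log2 difference was -0.23. Promoter regions of named genes were then lower in 6 of 6 libraries (exact permutation p = 0.0313, adjusted p = 0.125). Autosomal intergenic regions had 11.3 ± 0.129 (exact permutation p = 0.156, adjusted p = 0.156). By the median the log2 difference there was -0.09, with promoter regions of named genes lower in 3 of 6 libraries (exact permutation p = 0.5). Gene model promoters had 214 ± 12.9, a value set by few regions: the log2 difference of -4.35 (exact permutation p = 0.0313, adjusted p = 0.0625) was -1.21 without the 5 regions with the most counts in each class. By the median over regions it was -0.09, with promoter regions of named genes lower in 3 of 6 libraries. No class differed at an adjusted p under 0.05, which these 6 libraries could reach only with at least 3 classes at the smallest p.

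Of 17425 named protein-coding genes on autosomes in RefSeq, 5391 (30.9%) had a promoter region, and gene groups differed widely around this share. The groups were sets of known genes or symbol families, and their shares are counts without a test. Germline and meiosis genes had one at 59 of 93 (63.4%) and imprinted genes at 37 of 60 (61.7%). Genes of ion channels and neurotransmitter receptors had one at 120 of 202 (59.4%) and homeobox genes, the transcription factors of body patterning, at 84 of 145 (57.9%). At the other end were genes for ribosomal and housekeeping proteins with 7 of 42 (16.7%) and replication-dependent histone genes with 2 of 63 (3.17%).

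Families of secreted or immune proteins lay under the overall share. Serpins, kallikreins, defensins and secretoglobins had a promoter region at 44 of 200 genes (22.0%), immune receptor and MHC genes at 74 of 316 (23.4%), and a set of symbols of mostly rodent multicopy families at 44 of 195 (22.6%). Cytochrome P450 and UGT genes were near it with 36 of 118 (30.5%), as were clustered protocadherins with 18 of 57 (31.6%). Solute carriers and transporters had 153 of 424 (36.1%) and keratin and keratin-associated genes 42 of 112 (37.5%).

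Contractile genes lay near the overall share and regulators of muscle above it. Of 53 genes of the contractile apparatus 17 had a promoter region (32.1%), and of 34 myogenic, MEF2 and fibre type regulators 15 (44.1%). Acta1, skeletal muscle actin, had the highest level of the contractile genes with 68, 55 and 62 counts in wild type and 62, 69 and 60 in knockout. That region lay inside the gene, with its midpoint 1640 bp after the assigned start. Actn2, an actinin of the Z-disc, had 38, 35 and 41 against 26, 49 and 44. Of the regulators, Myf6, a late myogenic factor, was highest with 53, 40 and 50 against 63, 41 and 35. In all 3 the genotypes overlapped. Their densities were 9.66 CPM per kb at Acta1, 10.2 at Actn2 and 11.5 at Myf6, near the median of 11.1 over all regions. The assay is aimed at a silencing mark and not at expression, so these counts do not check the tissue label. No control library was used, so the part of such counts that is due to the mark was not tested.

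**Figure D2:**
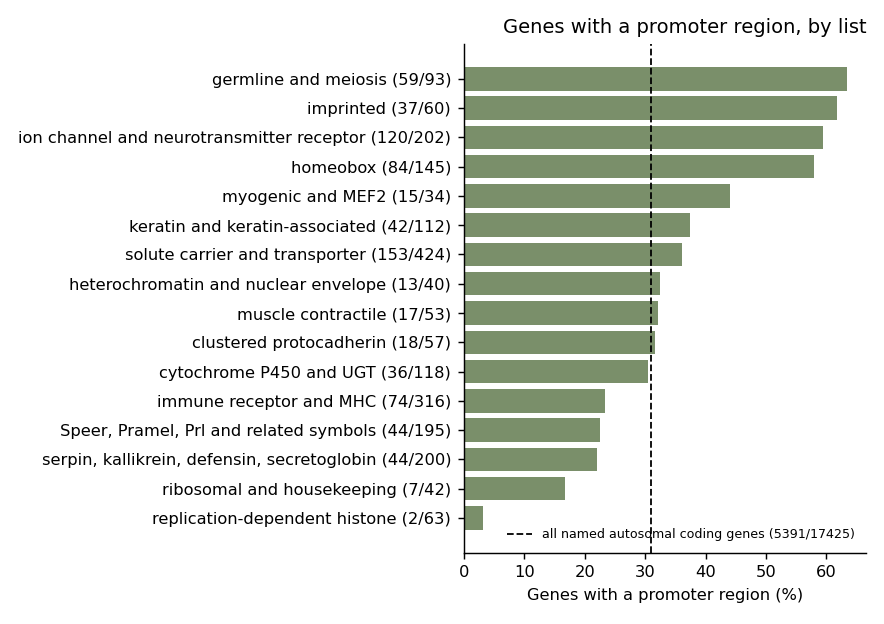
Percent of the named autosomal protein-coding genes of each group that have a promoter region (bars, with the counts in brackets), with the dashed line at the 30.9% over all such genes. Germline, imprinted, channel and homeobox genes lie at 57.9 to 63.4%, and ribosomal and histone genes at 16.7% and 3.17%.

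Among imprinted genes, Igf2, the fetal growth factor, had the strongest promoter region with 134, 188 and 141 counts in wild type and 202, 183 and 146 in knockout. That region lies upstream of the assigned start, with its midpoint at -1203 bp, and overlaps the RefSeq span of Igf2os and not that of Igf2. The nearest RefSeq window of Igf2, 506 bp from the region, is CpG-poor. Impact had 126, 152 and 141 against 146, 100 and 163, Grb10, a growth-factor receptor adaptor, 93, 88 and 104 against 141, 84 and 79, and Snurf, at the start it shares with the splicing factor gene Snrpn, 104, 76 and 100 against 92, 94 and 109. The genotypes overlapped in all of these. The 52 regions of imprinted genes had a median density of 12.7 CPM per kb.

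Among germline genes the strongest were Syce3 and Sycp1, both of the synaptonemal complex. Syce3 had 89, 92 and 101 counts in wild type and 86, 89 and 113 in knockout, and Sycp1 had 86, 112 and 107 against 115, 62 and 90. Tdrd6, a Tudor protein of the chromatoid body, had 88, 71 and 98 against 85, 84 and 93, and Mael 101, 65 and 79 against 101, 64 and 78. The genotypes overlapped at all 4. The 63 germline regions had a median density of 12.3 CPM per kb and a median width of 519 bp. Of 58 tested, 1 was higher and 0 were lower at an unadjusted edgeR p under 0.05, against 2.02% and 1.81% of all regions.

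The E-box CACGTG, searched on both strands, was found in 18 of 46 windows of germline genes with a promoter region (39.1%), and in 4 of 27 windows of germline genes without one (14.8%). Over the 14236 windows of autosomal named genes, none of them on chromosome 18, the share was 8.77%. Over the windows of genes with a promoter region it was 8.74%. Homeobox genes had the E-box in 10 of 51 windows with a region (19.6%) and in 2 of 39 without one (5.13%). Channel and receptor genes went the other way, with 3.8% and 8.1%. The E2F motif GCGGGAA was found in 14 of the 46 germline windows (30.4%) and in 3 of the 27 (11.1%), against 6.85% of the windows of autosomal named genes. The windows of Sycp1 and Mael printed above each hold 1 E-box and no E2F match. A match says only that the letters are present.

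For other motifs the contrast between genes with and without a region varied with the motif and the group. The ETS motif CCGGAAG, typical of housekeeping promoters, was in 9.40% of 3672 windows of genes with a promoter region and in 14.8% of 10034 windows of genes without one. TGCCGC, the core bound by the imprint-protecting factor ZFP57, was in 8 of 28 imprinted windows with a region (28.6%), in 5 of 21 without one (23.8%) and in 15.7% of the windows of autosomal named genes. TATAAA was in 30 of 38 keratin windows with a region (79.0%), against 62.8% of those without one and 10.9% of the windows of autosomal named genes. CpG-rich windows were about as frequent in genes with a promoter region (37.3%) as in those without (35.3%).

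Homeobox regions had a median density of 13.8 CPM per kb over 113 regions. Pou4f2, a factor of retinal and sensory neurons, led with 103, 65 and 103 counts in wild type and 91, 102 and 91 in knockout, followed by Hoxb13 with 83, 82 and 92 against 135, 81 and 78. The genotypes overlapped at both. Channel and receptor genes had 161 regions with a median of 12.4 CPM per kb, led by Kcnk12 with 123, 126 and 121 against 147, 103 and 104. Clustered protocadherins, adhesion proteins that give neurons their identity, were the densest group with a median of 24.7 CPM per kb over 21 regions. Pcdhga2 had 265, 301 and 245 counts in wild type and 272, 204 and 198 in knockout.

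Secretoglobin and UGT genes start in CpG-poor DNA. Scgb1b30, whose window is printed above, had 64, 95 and 110 counts in wild type and 68, 75 and 97 in knockout. Ugt1a1, which conjugates bilirubin in liver, was the strongest of the cytochrome and UGT genes with 210, 200 and 186 counts against 152, 129 and 147. All 3 knockout values lay under all wild-type values there, at 46.2 ± 2.13 CPM in wild type and 34.9 ± 2.21 CPM in knockout (SD, n = 3 each), but the log2 difference of -0.40 (SE 0.18) did not pass (edgeR adjusted p = 0.998). The region also lies within the spans of other Ugt1a genes, which share their last exons with it. Of the few housekeeping genes with a region, Eef1a1, the translation elongation factor, had 28, 33 and 58 against 16, 38 and 37, and Gapdh 10, 16 and 26 against 14, 12 and 23.

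Before genotypes are compared, the libraries themselves have to be, because they differed in how much of the signal fell on promoters. Library totals were 4324444 to 4756133 counts. Promoter regions of named genes held 2.90% of the counts in WT 3, 2.86% in WT 4 and 3.27% in WT 8, and 2.76% in KO 4, 3.22% in KO 5 and 3.68% in KO 7. The means were 3.01% ± 0.228 in wild type and 3.22% ± 0.462 in knockout (SD, n = 3 each). The genotypes overlapped, with knockout libraries both lowest and highest, and the shares were described without a test.

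The spread among libraries was widest at CpG-rich promoters. Regions were classed by the RefSeq window of their gene where it lay within 1 kb: 1504 were CpG-rich (observed over expected CG of at least 0.75 and GC of at least 55%), 1260 CpG-poor (under 0.48) and 1289 intermediate, while 2425 had no such window. Of the 4053 regions classed, 2203 overlapped their window. The class is that of the window, and the sequence of the regions themselves was not read. CpG-rich promoter regions held 0.547%, 0.543% and 0.661% of counts in WT 3, WT 4 and WT 8 and 0.520%, 0.663% and 0.842% in KO 4, KO 5 and KO 7. The highest share was 1.62 times the lowest. It was 1.41 times for intermediate and 1.18 times for CpG-poor promoters, 1.09 times for regions of named genes 1 to 3 kb from a start and 1.03 times for intergenic regions. The same order of libraries was seen region by region. Over 4982 promoter regions with a mean of at least 10 counts, the median log2 ratio of KO 7 over KO 4, which share a genotype, was 0.42, and it was 0.67 in CpG-rich and 0.21 in CpG-poor regions. The ratio of WT 8 over WT 3 was 0.17, while that of KO 5 over WT 8, of different genotypes, was -0.01. Over all regions these ratios lay within 0.03 of 0.

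The mitochondrial share of counts moved with the promoter share. Mitochondrial DNA has no histones, and the table holds 3 regions there. They took 0.174%, 0.189% and 0.366% of counts in WT 3, WT 4 and WT 8 and 0.146%, 0.248% and 0.612% in KO 4, KO 5 and KO 7. KO 4 was lowest and KO 7 highest in both shares. Over the 6 libraries Pearson's r was 0.961 and Spearman's rho 0.943, and r was 0.966 over the 4 libraries without KO 7 and WT 8. The relation was not particular to promoters. Regions of named genes 1 to 3 kb from a start had r of 0.76 and rho of 0.943, and r of 0.970 without KO 7 and WT 8. Autosomal intergenic regions moved the other way, with r of -0.80 and rho of -0.943, and r of -0.997 without KO 7 and WT 8. This is a description of libraries whose shares have a common total, with no test.

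**Figure D3:**
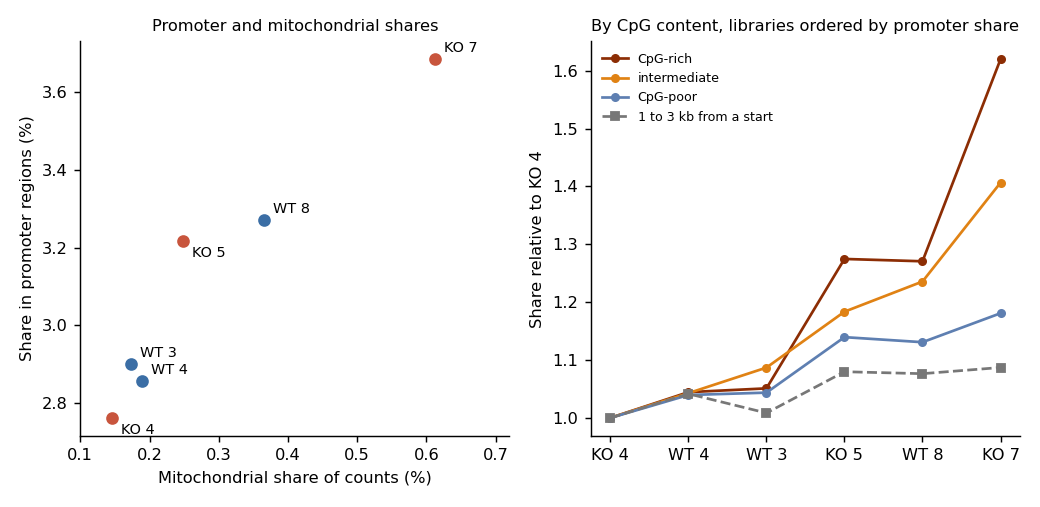
Left, share of each library's counts in promoter regions of named genes (%) against its share on the mitochondrial chromosome (%), 1 point per library, wild type blue and knockout red. Right, share of counts in promoter regions by CpG class and in regions of named genes 1 to 3 kb from a start, each relative to its value in KO 4; KO 7 is highest in every class, at 1.62 for CpG-rich and 1.18 for CpG-poor promoters.

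The genotypes were compared region by region with edgeR's quasi-likelihood test over 153789 regions of the whole table that passed a filter on low counts, of which 4911 were promoter regions of named genes, 75.8% of the 6478. A single one of them passed an edgeR adjusted p of 0.05, the region at Prr14, which was higher in knockout, and 0 were lower. That is 0.0204% of those tested, where 0.00325% of all regions were called higher and 0.00975% lower. At an unadjusted edgeR p under 0.05, 222 promoter regions (4.52%) were higher and 57 (1.16%) lower, against 2.02% and 1.81% of all regions. All 3 knockout values lay above all wild-type values in 314 (6.39%) and below them in 167 (3.40%), against 4.68% and 4.93% of all regions. The median log2 difference was 0.10, against 0.001 over all regions, with a median SE of 0.46 for a single region.

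The excess of higher over lower values depended on KO 7. Without KO 7, 108 promoter regions were higher and 102 lower at an unadjusted edgeR p under 0.05 (2.05% and 1.94%, against 1.90% and 1.91% of all regions), and the median log2 difference was -0.02. With the mitochondrial share as a covariate there were 123 and 112 (2.50% and 2.28%, against 1.92% and 2.14% of all regions), with a median of 0.004. Without KO 4, the library with the lowest promoter share, 494 were higher and 64 lower (8.83% and 1.14%, against 2.77% and 2.28% of all regions). With every region tested and no filter, 281 of all 6478 were higher and 70 lower (4.34% and 1.08%, against 1.97% and 1.74% of all regions).

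CpG-rich promoters had the largest imbalance in the full set of libraries. Of 1095 tested, 69 (6.30%) were higher and 7 (0.639%) lower at an unadjusted edgeR p under 0.05, against 2.02% and 1.81% of all regions. The median log2 difference was 0.22. These counts include KO 7, the library with the highest share of counts in CpG-rich promoter regions (0.842%, against 0.520% in KO 4, the lowest). Of 1001 intermediate promoters, 41 (4.10%) were higher and 11 (1.10%) lower (median 0.09). Of 980 CpG-poor ones, 46 (4.69%) were higher and 13 (1.33%) lower (median 0.05). Regions of named genes 1 to 3 kb from a start had 56 (2.02%) and 55 (1.99%) of 2770, and zinc finger gene promoters 4 (3.1%) and 5 (3.9%) of 128. The difference between these classes was not tested.

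**Figure D4:**
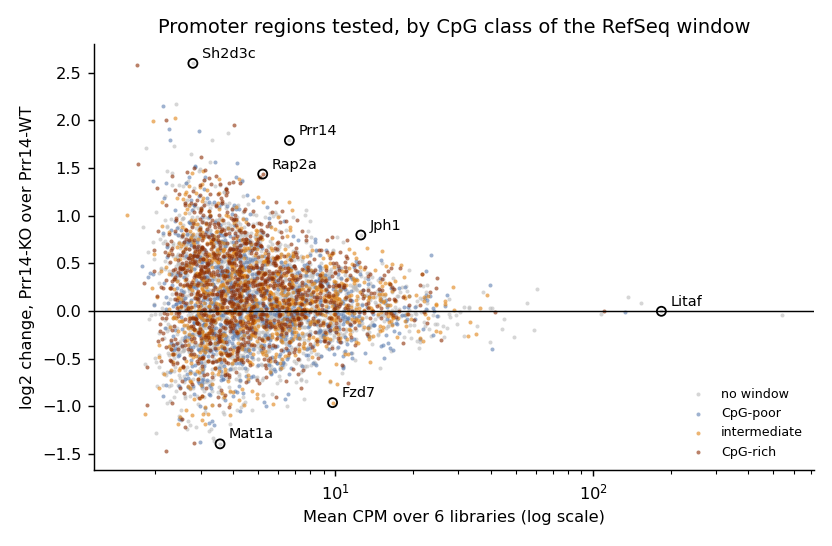
Log2 difference of knockout over wild type against mean level (CPM, log axis) for the 4911 promoter regions tested, coloured by CpG class of the RefSeq window. Prr14, at 1.79, is the only region past an edgeR adjusted p of 0.05, and strong regions such as Litaf lie near 0.

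At Prr14 (chr7:127475331-127476074) the counts were 10, 18 and 10 in WT 3, WT 4 and WT 8 and 14, 56 and 54 in KO 4, KO 5 and KO 7. KO 5 and KO 7 were high, and KO 4 lay within the wild-type range. The level was 2.95 ± 1.11 CPM in wild type and 10.3 ± 6.11 CPM in knockout (SD, n = 3 each), a log2 difference of 1.79 (SE 0.38, edgeR adjusted p = 0.0216). The authors' table gives the gene as 127470371 to 127476759 on the plus strand. The region, 743 bp wide, therefore lies toward its 3′ end, with its midpoint 5332 bp from the 5′ end and 184 bp from the start of another transcript. Nothing in the labels gives the part of Prr14 that was deleted, so the region does not check the genotype. The call was lost with DESeq2, with limma-voom, with the mitochondrial covariate (adjusted p = 0.557), and without WT 3 (0.679), WT 8 (0.474), KO 5 (1.00) or KO 7 (1.00). The log2 difference stayed between 1.49 and 2.21 over the 15 alternatives.

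No other promoter region passed. Those whose genotypes did not overlap are given next by smallest p, each with an edgeR adjusted p of 0.724 or more. Higher in the 3 knockout libraries was Sh2d3c, a signalling adaptor, with 5, 2 and 3 counts in wild type and 19, 27 and 13 in knockout (log2 difference 2.60, SE 0.68, edgeR adjusted p = 0.724). C1ql4, a secreted C1q-like protein with a CpG-rich promoter, had 1, 10 and 10 against 17, 35 and 26 (1.95, SE 0.52, edgeR adjusted p = 0.732). Both rest on few counts in wild type.

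Rap2a, whose CpG-rich window is printed above, had 3, 9 and 24 counts in wild type and 25, 26 and 42 in knockout. Its groups were separated by a single count between WT 8 and KO 4. Postn, with the CpG-poor TATA-box window printed above, had 4, 8 and 4 against 15, 18 and 24. Jph1, the junctophilin that ties the sarcoplasmic reticulum to the transverse tubules of muscle, had 34, 42 and 42 against 51, 54 and 89, or 9.16 ± 1.24 CPM against 15.9 ± 5.60 CPM (SD, n = 3 each). KO 7 was far above the other knockout libraries at Jph1. Arap3, a regulator of small GTPases, had 7, 7 and 7 against 14, 20 and 39, Mgst1, a glutathione transferase, 9, 2 and 8 against 16, 24 and 23, and Glb1, the lysosomal beta-galactosidase, 14, 9 and 4 against 14, 30 and 31 counts. At Glb1 the counts of WT 3 and KO 4 were equal and only the scaled values did not overlap. The log2 differences of these genes were 1.44 at Rap2a, 1.89 at Postn, 0.80 at Jph1, 1.87 at Arap3, 1.80 at Mgst1 and 1.55 at Glb1, all with an edgeR adjusted p of 0.998. Without KO 7 the difference at Jph1 was 0.48, and without WT 8 that at Rap2a was 2.42.

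Lower in the 3 knockout libraries was Fzd7, a Wnt receptor, with 54, 51 and 61 counts in wild type and 11, 32 and 37 in knockout (log2 difference -0.96, SE 0.30). KO 4 was the lowest there, and without it the difference was -0.57. Mat1a, the methionine adenosyltransferase of liver, had 23, 26 and 18 against 10, 6 and 8 (-1.40, SE 0.54). Xkr4, a membrane protein of the XK family, had 43, 31 and 54 against 25, 22 and 17, and Cacng2, the AMPA receptor subunit stargazin, 55, 54 and 56 against 38, 22 and 32. The wild-type libraries were close to each other at Cacng2 and spread at Xkr4. Ppp2r2b, a subunit of protein phosphatase 2A, had 37, 34 and 41 against 16, 22 and 15, and Ripply2, a regulator of somite formation, 72, 45 and 64 against 25, 40 and 36. Slco5a1, an organic anion transporter, had 64, 39 and 51 against 29, 31 and 27, and Grid2ip, a synaptic scaffold protein, 36, 24 and 48 against 21, 19 and 14. All 8 had an edgeR adjusted p of 0.998.

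**Figure D5:**
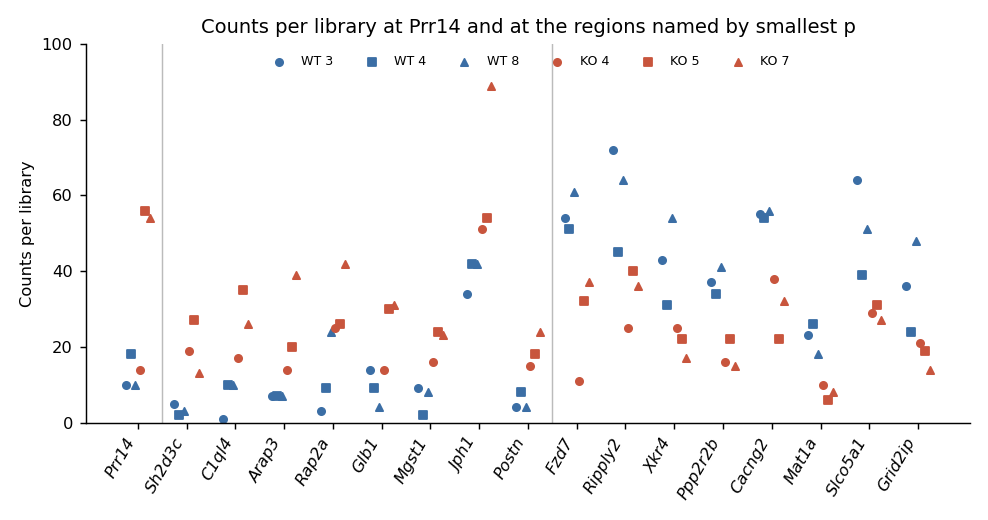
Counts per library at Prr14 (left of the first line), at the 8 regions higher in knockout (middle) and at the 8 lower (right), wild type blue and knockout red, with 1 symbol per library. At Prr14 the KO 4 value of 14 lies among the wild-type values, and KO 7 is the highest of the 6 libraries at Rap2a, Jph1, Arap3 and Postn.

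Counts within the gene groups were small, and over all regions 2.02% were higher and 1.81% lower at an unadjusted edgeR p under 0.05. Of 51 imprinted regions tested, 3 were higher and 1 lower at an unadjusted edgeR p under 0.05, with a median log2 difference of 0.17. Of 107 homeobox regions 4 were higher and 2 lower (median 0.12), of 145 channel and receptor regions 1 and 3 (median 0.003), and of 137 transporter regions 7 and 2 (median 0.12). Of 13 contractile regions and 11 regulator regions none was higher or lower. None of the 21 clustered protocadherin regions was either (median -0.02). Outside the group that holds Prr14, 0 regions of any group passed an edgeR adjusted p of 0.05.

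That group, of heterochromatin machinery and nuclear envelope genes, had 13 of 40 genes with a promoter region (32.5%). Its 15 regions, Prr14 among them, summed to 42.9, 41.4 and 51.7 CPM in WT 3, WT 4 and WT 8 and 49.6, 69.1 and 72.0 CPM in KO 4, KO 5 and KO 7, so that KO 4 lay within the wild-type range. The Prr14 region itself made up a mean of 2.95 CPM of the wild-type sums and 10.3 CPM of the knockout sums. Of 10 tested, Prr14 alone had an unadjusted edgeR p under 0.05. Syne1, the giant nesprin of the outer nuclear membrane, had 45, 19 and 44 counts in wild type and 48, 42 and 40 in knockout. Lmnb1, a nuclear lamin, had 15, 14 and 35 against 13, 25 and 28, and Dnmt1, the maintenance DNA methyltransferase, 11, 20 and 21 against 30, 22 and 19. The genotypes overlapped at each of these.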

How the data were processed

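H3K9me3 CUT&Tag signal of quadriceps femoris was deposited as a table of regions with a column of whole-number counts per library, raw per the file headers. Tools named in the submitters' processing notes are MACS2, BWA, bedtools, deepTools, Trimmomatic and DESeq2 1.6.3, with the build GRCm38, and the sources used here give neither settings nor whether libraries were pooled to call regions. The authors' deposited normalised signal, score, log2 fold change, p-value and adjusted p-value per region were not used. Annotation classes, symbols and positions are those of the authors' table. The test was run over the whole table in edgeR 4.0.16 (R 4.3.3): filterByExpr (minimum count 10, minimum total 15), TMM scaling, quasi-likelihood fit with robust weighting, Benjamini-Hochberg adjustment over all 153789 regions tested, threshold 0.05. The script was tested on simulated data. Width is end minus start. Alternatives were RLE factors, library totals, other filters, DESeq2 1.42.0, limma-voom 3.58.1, no robust weighting, a mitochondrial covariate, an adjusted p of 0.10 and leaving out each library. No spike-in is named, so a uniform change would be scaled away. Densities were compared by exact sign-change permutation. The regions, gene groups and rules were chosen with earlier results of these data known. Named regions were those past the threshold, in each direction up to 8 that did not overlap, the 15 largest by CPM, the 10 by CPM per kb, the 8 widest and up to 4 per group; not all are described.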

Additional observations from a re-analysis of the deposited data

How the results depend on the processing

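No paired analysis was possible because the genotypes share only replicate number 4. The count of promoter regions past the threshold was 1 higher and 0 lower; it was 0 higher with DESeq2, with limma-voom and with the mitochondrial share as a covariate, and ran from 0 to 1 when each library was left out, being 0 without WT 3, WT 8, KO 5 or KO 7. With a mean of 20 counts required (2254 regions tested), 105 were higher and 35 lower at an unadjusted edgeR p under 0.05. These are 4.66% and 1.55%, against 2.19% and 2.0% of all regions. With limma-voom 137 were higher and 55 lower at its unadjusted p under 0.05 (2.79% and 1.12%, against 1.51% and 1.39% of all regions). With the mitochondrial covariate in edgeR, 123 were higher and 112 lower (2.50% and 2.28%, against 1.92% and 2.14% of all regions). Leaving out each library gave 108 to 494 higher, lowest without KO 7 (2.05%, against 1.90% of all regions) and highest without KO 4 (8.83%, against 2.77%). It gave 47 to 102 lower, lowest without WT 8 (0.874%, against 1.82% of all regions) and highest without KO 7 (1.94%, against 1.91%). The wild-type share of counts in promoter regions was 1.73% over regions of 500 bp or more and 3.34% with zinc finger, olfactory and vomeronasal genes kept; the knockout share was 1.82% over regions of 500 bp or more. The median log2 difference of promoter regions, 0.10, was -0.02 without KO 7 and stayed above 0 under the other alternatives for which it was computed. A median of 15.3 counts per promoter region, with a median SE of 0.46 on the log2 scale, limits what a single region can show.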
